A study of Homo sapiens with 92 samples.

Results

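The experiment described here asked how RNA synthesis in the first 120 min after mitosis differed between cells that entered G1 with the cohesin loader NIPBL and cells in which dTAGV-1 targeted it for degradation from mitosis onward. Its libraries were chosen by their labels: 3 libraries with dTAGV-1 and 3 with DMSO, collected 120 min after release from mitosis with 4-thiouridine (4sU) present for the whole 120 min by the titles and the labelling field, which is 6 of the 92 libraries of the series. The protocol states that the labelling period counts within the treatment time, and the worked example it gives is for another time and label length than these libraries. The design text gives the role of NIPBL in the restart of transcription after mitosis as the question. All 6 libraries came from hTERT RPE-1, a human retinal pigment epithelial line immortalised with telomerase, and from a single clone, NIPBL-D7, in which the labelled genotype mGreenLantern-P2A-FKBP12(F36V)-NIPBL joins the FKBP12(F36V) degron to NIPBL; both arms carried it. Cells of both arms went through a double block with 2 mM thymidine and then 20 ng/ml nocodazole for 120 min. DMSO or dTAGV-1 was added with the nocodazole, mitotic cells were collected by shake-off, and they were released into medium with the same agent for 120 min, with 100 µM 4sU. The companion libraries used for comparison, from the same clone with the same label length, received dTAGV-1 or DMSO from release onward and not during the nocodazole step.

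NIPBL is the subunit of the cohesin loading complex that stimulates cohesin to bind DNA and to extrude loops. Cohesin leaves most of the chromosome arms in mitosis and is loaded again as cells exit it, at the time when transcription of the daughter nuclei restarts. Loops made by cohesin bring distal enhancers and promoters together within domains bounded by CTCF, and loss of cohesin is known to affect inducible and cell-type genes more than genes of general metabolism. The FKBP12(F36V) degron is recognised by dTAGV-1, which recruits a ubiquitin ligase to the tagged protein. In the assay, 4sU enters RNA made during the label and is read as a T-to-C conversion after alkylation. With the label present since release, reads with a conversion (converted reads) report RNA made since mitosis, and the other reads report RNA that was carried through mitosis or that was made without a detectable conversion.

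The 6 libraries held 27.2 M to 61.9 M reads over genes (M stands for 1000000), of which 6.67 M to 15.1 M were converted; replicate 3 with dTAGV-1 was the shallowest on both measures. The converted share of reads was 26.2% ± 2.97 (SD, n = 3) with dTAGV-1 and 26.5% ± 2.65 (SD, n = 3) with DMSO, a difference of -0.297 percentage points (two-sided exact permutation test, p = 1; 3 against 3 cannot go below 0.1). NIPBL RNA does not check the depletion, since the degron acts on the protein: converted reads of NIPBL stood at 329, 435 and 387 CPM (converted reads per 1000000, scaled by the trimmed mean of M values, TMM) in DMSO replicates 1 to 3 and at 394, 449.8 and 319.8 CPM with dTAGV-1, and the arms overlapped. The labelled cell type was set against markers. Of 14 genes of retinal pigment epithelial function, 3 had enough converted reads to be tested, and RPE65, RLBP1, TYR, TYRP1, DCT and MLANA were at 3 converted reads or fewer in each library, while the eye transcription factors OTX2, PAX6 and MITF and the mesenchymal cadherin CDH2 were read. Converted reads of the 12 neuron markers summed to 266 to 403 CPM in DMSO and 158 to 234 CPM with dTAGV-1, with DCX, ELAVL3, ELAVL4, NEFL, NEFM and STMN2 at 3 reads or fewer. Most of that was SYT1, at a mean of 285 CPM in DMSO and 165 CPM with dTAGV-1 (these marker sums and means are without TMM scaling). The part of these markers in the results was not tested. Cardiomyocyte markers summed to at most 4.05 CPM in any of the libraries.

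Across 16571 genes tested by edgeR's quasi-likelihood test, converted reads of 339 genes (2.05% of the genes tested) were lower and of 68 genes (0.41%) were higher with dTAGV-1 at a Benjamini-Hochberg adjusted p under 0.05, 2.46% in all, while the median log2 change of all genes was 0.02. All adjusted p-values below come from this kind of fit unless another is named, and log2 changes are dTAGV-1 minus DMSO with their standard error (SE). The lower genes had a median log2 change of -1.13 (from -4.19 to -0.47) and the higher genes 1.01. In 338 of the 339 lower genes and 67 of the 68 higher genes the 3 libraries of an arm did not overlap those of the other, against 16% of all genes tested. The calls rest on the same libraries, so this describes the called genes and is no separate test. Same-numbered libraries of the arms deviated together, and with the replicate number as a block 651 genes were lower (3.93%) and 182 higher (1.1%), 5.03% of the genes tested, with 338 and 66 of the calls above among them. Gene lists were chosen with earlier results of these data known. Counts of their called members therefore describe the lists and do not test them. Counts of called list members below are to be set against these shares of all genes. The shares are 2.05% lower and 0.41% higher without the block, and 3.93% and 1.1% with it. The count of 407 fell to 225, 232 and 239 when DMSO replicate 1, DMSO replicate 2 or dTAGV-1 replicate 2 was left out. In bulk libraries, fewer cells that express a gene and less RNA of it per cell cannot be told apart. No source used here says whether counting used the strand, so the reads of genes with an overlapping partner, among them IL6, BDNF, KCNMA1, NCKAP5, TFAP2A, HAS2, SOX9, RUNX2, PAX6, CDKN2B, CCND1 and TIPARP, cannot be separated from those of the partner.

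**Figure D1:**
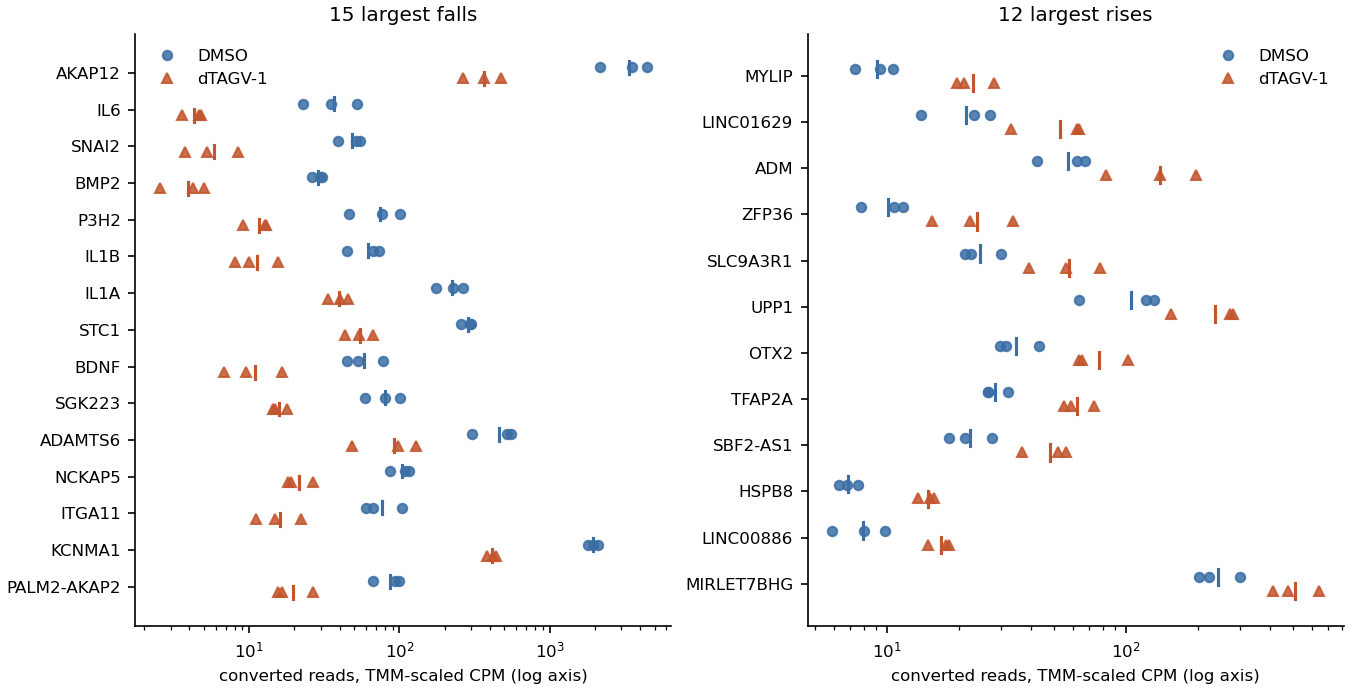
Converted reads (TMM-scaled CPM, log axis) of the 15 genes with the largest falls and the 12 with the largest rises, 1 point per library and bars at the mean of each arm of 3. Genes were taken from those called with a mean log2 CPM of at least 3 and arms apart. Genes named after a sequenced clone were passed over. In each gene the dTAGV-1 points lie wholly below (left) or wholly above (right) the DMSO points, as the choice of genes required.

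Inflammatory cytokines and chemokines, the secreted signals of the innate immune response that RPE cells and fibroblasts also make, were prominent among the falls: 6 of 13 tested ligands were lower and none higher, and the list's median log2 change was -1.29 against 0.02 over all genes. IL6 (chr7:22725884-22732002 in hg38), a cytokine that acts on leukocytes and stroma, gave 52.5, 34.9 and 23.0 CPM in the DMSO replicates and 4.75, 4.65 and 3.56 CPM in the dTAGV-1 replicates. The lowest DMSO library was thus several times above the highest dTAGV-1 library, and the log2 change was -3.07 ± 0.31 (adjusted p = 6.21e-05). IL1A and IL1B, the 2 interleukin-1 ligands that lie side by side on chromosome 2, fell by like amounts. IL1A stood at 175, 228 and 264 CPM in DMSO and 33.5, 45.7 and 40.2 CPM with dTAGV-1 (-2.48 ± 0.17, adjusted p = 6.79e-06). IL1B stood at 73.3, 44.9 and 66.6 CPM in DMSO and 9.94, 8.03 and 15.6 CPM with dTAGV-1 (-2.49 ± 0.26, adjusted p = 7.84e-05). In neither gene did the arms overlap. CXCL1, a neutrophil attractant, was low in all libraries, with 8.42, 5.40 and 5.36 CPM in DMSO and 0.864, 1.20 and 1.37 CPM with dTAGV-1 (-2.52 ± 0.40, adjusted p = 0.00237). The colony-stimulating factors CSF2 and CSF1 also fell, from mean levels of 13.4 to 2.86 CPM (log2 change -2.32 ± 0.48) and from 25.8 to 10.6 CPM (-1.29 ± 0.18). The remaining 7 ligands did not pass: CXCL3 was at -1.15 ± 0.30 (adjusted p = 0.064) and IL33 at -1.39 ± 0.38 (adjusted p = 0.081), whereas CXCL8 was at -0.32 ± 0.25, LIF at 0.37 ± 0.34 and IL11 at 0.57 ± 0.36. With the replicate block CXCL3 (adjusted p = 0.00224) and IL33 (adjusted p = 0.021) were called as well, which made 8 of 13 ligands lower.

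The promoters of 3 of these ligands and of PTGS2, described next, are shown because NF-kB and AP-1, the factors that drive inflammatory genes, are known to bind in such promoters. Each run is the 250 bases before the RefSeq start (GRCh38.p14), 5′ to 3′ on the gene's strand: chr7:22726950-22727199 (+) for IL6, chr4:73869143-73869392 (+) for CXCL1, chr2:112784494-112784743 (-) for IL1A and chr1:186680424-186680673 (-) for PTGS2. Capitals mark matches, on either strand, to AP-1 (TGANTCA), CRE (TGACGTCA), the TATA box (TATAAA) or NF-kB (by name).
IL6: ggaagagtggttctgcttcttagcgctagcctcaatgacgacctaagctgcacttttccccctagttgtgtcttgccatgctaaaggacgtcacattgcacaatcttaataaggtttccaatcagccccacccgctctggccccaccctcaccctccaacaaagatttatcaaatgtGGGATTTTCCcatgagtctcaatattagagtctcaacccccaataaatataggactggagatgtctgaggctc
CXCL1: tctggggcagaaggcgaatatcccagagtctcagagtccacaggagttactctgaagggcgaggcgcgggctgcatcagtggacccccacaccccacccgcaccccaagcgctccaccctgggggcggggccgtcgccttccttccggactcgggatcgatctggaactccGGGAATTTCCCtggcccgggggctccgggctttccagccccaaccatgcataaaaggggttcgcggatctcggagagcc
IL1A: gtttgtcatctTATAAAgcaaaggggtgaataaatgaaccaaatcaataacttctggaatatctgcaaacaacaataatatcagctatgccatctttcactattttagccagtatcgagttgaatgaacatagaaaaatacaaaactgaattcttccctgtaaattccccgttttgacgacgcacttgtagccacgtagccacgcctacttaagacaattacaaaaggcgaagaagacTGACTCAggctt
PTGS2: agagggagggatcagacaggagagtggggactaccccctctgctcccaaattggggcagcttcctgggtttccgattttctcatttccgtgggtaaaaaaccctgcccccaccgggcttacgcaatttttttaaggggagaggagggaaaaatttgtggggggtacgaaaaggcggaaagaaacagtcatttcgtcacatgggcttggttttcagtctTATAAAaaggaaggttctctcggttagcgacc

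The NF-kB match of IL6 began 73 bases before the start, and that of CXCL1 began 79 bases before it and matched on both strands with a shift of 1 base. IL1A held an AP-1 match 12 bases and a TATA match 239 bases before its start, and PTGS2 held a TATA match 32 bases before its start. A promoter was found for 262 of the 339 lower genes, 50 of the 68 higher genes and 10644 of the genes tested. NF-kB matches were in 13% of the lower, 12% of the higher and 11.3% of all tested genes' promoters, and in 9.57% of the 27305 promoters of the table. AP-1 matches were in 5.73%, 8% and 4% of them, and 6.6% of the table. The TEAD motif (CATTCC) was in 12.6%, 10% and 9.47% (11.9% of the table), TATA in 9.16%, 14% and 5.75% (11.1%), CRE in 2.67%, 2% and 2.93% (1.77%), the GC box (GGGCGG) in 63%, 74% and 65.8% (42.3%), and the serum response element by its name CArG in 1.15%, 0% and 0.977% (1.14%). These shares describe letters in the window and were not tested.

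Of 21 inflammatory enzymes and NF-kB regulators tested, 4 were lower and none higher, against 2.05% lower and 0.41% higher among all genes. Their median of 0.12 lay on the other side of 0. With the block 1 member, the kinase gene MAP3K8, was higher (0.88, adjusted p = 0.0152). PTGS2, the inducible cyclooxygenase that makes prostaglandins, stood at 247, 208 and 238 CPM in DMSO and 58.4, 45.6 and 86.9 CPM with dTAGV-1 (-1.87 ± 0.25, adjusted p = 0.000707). PLA2G4A, the phospholipase that releases arachidonic acid for it and whose start lies 149 kb away, fell by 1.85 on the log2 scale. IRAK2, a kinase of interleukin-1 receptor signalling, fell without overlap of the arms, with 107, 95.5 and 89.5 CPM in DMSO and 37.7, 36.5 and 34.9 CPM with dTAGV-1 (-1.42 ± 0.13, adjusted p = 4.01e-05). TNFAIP8 and NFKBIZ fell by smaller amounts (-1.08 ± 0.17 and -0.99 ± 0.12). The genes of the NF-kB core did not pass: NFKB1 was at -0.12 ± 0.15, RELA at 0.38 ± 0.24 and the inhibitor NFKBIA at 0.20 ± 0.26. Immediate early genes respond first to serum, and many of them code for transcription factors. Of 28 tested, 1 was lower and 1 higher, with a median of 0.45 and 7 members below 0. MYC, a growth regulator, fell from 139, 177 and 255 to 86.4, 62.7 and 121 CPM (-1.09 ± 0.25, adjusted p = 0.0338), and ZFP36, which destabilises cytokine mRNA, rose from 11.6, 7.78 and 10.7 to 22.2, 15.4 and 33.8 CPM (1.23 ± 0.29, adjusted p = 0.04). With the replicate block 5 members of this list were higher, the added ones being NR4A3, EGR2, NR4A1 and BTG2. FOS was at 0.51 ± 0.50, JUN at 0.65 ± 0.38 and EGR1 at 0.59 ± 0.32, none of which passed. MYC did not pass without DMSO replicate 2 or 3 or dTAGV-1 replicate 1 or 2 (-1.14 to -0.82), and ZFP36 kept its call without dTAGV-1 replicate 2 and lost it without any of the other 5 libraries (0.91 to 1.36).

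Some growth factors of several families were lower, while most members did not pass. Of 22 FGF, PDGF, Wnt and neurotrophin ligands, 7 were lower and none higher (median -0.48). BDNF, a neurotrophin, stood at 77.3, 53.1 and 44.6 CPM in DMSO and 16.6, 9.58 and 6.84 CPM with dTAGV-1 (-2.37 ± 0.31, adjusted p = 0.000453); its antisense gene overlaps it. KITLG, the ligand of the KIT receptor, gave 132, 127 and 134 CPM in DMSO and 45.9, 38.7 and 31.1 CPM with dTAGV-1 (-1.76 ± 0.19, adjusted p = 0.000114). PDGFC and FGF2 fell by about 1 on the log2 scale (-1.24 ± 0.20 and -0.98 ± 0.14). Of 8 EGF receptor ligands and receptors, 3 were lower: the ligands AREG (-1.71 ± 0.30) and NRG1 (-1.30 ± 0.21) and the receptor EGFR itself (-0.75 ± 0.16). The angiogenic factor VEGFA held 721, 589 and 685 CPM in DMSO and 138, 115 and 204 CPM with dTAGV-1 (-2.13 ± 0.29, adjusted p = 0.000816). Its relative VEGFC was at -1.18 ± 0.27 (adjusted p = 0.0309), a call that was lost without DMSO replicate 1 or 2 or dTAGV-1 replicate 2 or 3, at -1.26 to -0.89. EGFR was not called without DMSO replicate 2 or 3 or dTAGV-1 replicate 1 or 3, at -0.77 to -0.64.

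Of 18 ligands and antagonists of the TGF-beta and BMP families, which pattern tissues and drive matrix synthesis, 4 were lower and none higher. With the replicate block 6 were lower, FST and TGFB2 being added, and 2 were higher, TGFB3 and BMP6. BMP2 (chr20:6767664-6780280) had 26.0, 29.4 and 30.5 CPM in DMSO and 5.00, 2.54 and 4.24 CPM with dTAGV-1 (-2.87 ± 0.25, adjusted p = 2.59e-05). The BMP antagonist GREM1 fell from 284, 372 and 378 to 115, 124 and 104 CPM (-1.59 ± 0.20). LTBP1, which stores latent TGF-beta in the matrix, and the ligand GDF6 were at -1.25 ± 0.18 and -1.53 ± 0.35. Ligand and antagonist of 1 pathway thus both fell. Among 26 TGF-beta receptors and response genes 2 were lower, TGFBR2 (-1.26 ± 0.15, adjusted p = 0.000295) and BMPR1B (-0.91 ± 0.21, adjusted p = 0.0366), and with the block 4 were lower and 4 higher. BMPR1B kept its call when DMSO replicate 2 was left out and lost it without any of the other 5 libraries, at -1.01 to -0.63; GDF6 lost its call without DMSO replicate 1 or dTAGV-1 replicate 2 or 3, at -1.41 to -1.04.

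Transcription factors of mesenchymal identity included some of the largest falls: 5 of 26 were lower and 1 higher, with a list median of 0.12, and 8 were lower with the block. SNAI2, the Slug repressor of epithelial cadherin, had 51.7, 39.2 and 54.5 CPM in DMSO and 8.46, 3.73 and 5.20 CPM with dTAGV-1 (-3.04 ± 0.26, adjusted p = 2.37e-05). GATA6, an endoderm and mesenchyme factor, had 171, 182 and 206 CPM in DMSO and 86.5, 59.6 and 71.8 CPM with dTAGV-1 (-1.36 ± 0.19, adjusted p = 0.000816). SOX9 (-1.16 ± 0.22), RUNX2 (-1.21 ± 0.27) and TWIST2 (-0.87 ± 0.14), regulators of cartilage, bone and mesenchyme, fell less. TFAP2A, a factor of neural crest and surface ectoderm, moved the other way, from 32.2, 26.4 and 26.3 to 73.2, 58.7 and 55.0 CPM (1.14 ± 0.17, adjusted p = 0.00147). Of 10 eye field and retinal pigment epithelial factors, 2 were higher and none lower. OTX2, which specifies the forebrain and the pigment epithelium, rose from 43.2, 31.5 and 29.7 to 102, 63.7 and 65.5 CPM (1.15 ± 0.23, adjusted p = 0.013). PAX6, a master regulator of the eye, rose from 67.1, 66.1 and 58.2 to 140.2, 124 and 114 CPM (0.98 ± 0.17, adjusted p = 0.00514). The OTX2 call was lost without DMSO replicate 2 or 3, at 1.05 to 1.08, and the RUNX2 call without each library but dTAGV-1 replicate 1, at -1.27 to -1.02.

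Some genes of the extracellular matrix and its enzymes were lower, in several families. P3H2 (chr3:189956728-190122437), a prolyl hydroxylase that modifies collagen chains, had 101, 76.2 and 46.1 CPM in DMSO and 12.8, 12.9 and 9.03 CPM with dTAGV-1 (-2.67 ± 0.24, adjusted p = 3.23e-05). Of 14 collagen genes 4 were lower and none higher (median -0.13). COL5A2, a fibrillar collagen chain, had 107, 102 and 69.7 CPM in DMSO and 23.8, 25.9 and 17.6 CPM with dTAGV-1 (-2.04 ± 0.20, adjusted p = 6.21e-05). The basement membrane chains COL4A1 (-1.06 ± 0.16) and COL4A2 (-0.82 ± 0.17), which share a start region on opposite strands, and the transmembrane COL13A1 (-0.79 ± 0.12) also fell. COL4A2 lost its call without DMSO replicate 1 or dTAGV-1 replicate 2 or 3, at -0.77 to -0.70. Of 25 matrix glycoproteins and hyaluronan genes 6 were lower and none higher (median -0.25), and with the block LAMB3, a laminin chain, was higher (0.72, adjusted p = 0.00519) and 7 were lower. HAS2, a hyaluronan synthase, had 87.8, 67.5 and 62.8 CPM in DMSO and 26.2, 16.0 and 19.3 CPM with dTAGV-1 (-1.82 ± 0.19, adjusted p = 7.84e-05). THBS1, a thrombospondin that binds matrix and activates latent TGF-beta, had 497, 613 and 463 CPM in DMSO and 145, 174 and 142 CPM with dTAGV-1 (-1.77 ± 0.20, adjusted p = 0.000186). The proteoglycan VCAN was at -1.75 ± 0.24 and the fibulin EFEMP1 at -1.57 ± 0.32, the latter not called without DMSO replicate 1 or dTAGV-1 replicate 2 or 3 (-1.53 to -1.20).

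Among enzymes and receptors that act on this matrix a minority passed. Of 17 matrix proteases and inhibitors 4 were lower and none higher, at a median of -0.00 that became 0.07 with all-read library sizes; with the block 7 were lower and 1, the inhibitor TIMP1, higher. ADAMTS6, a secreted metalloprotease, had 554, 524 and 304 CPM in DMSO and 129.7, 98.1 and 48.0 CPM with dTAGV-1 (-2.32 ± 0.34, adjusted p = 0.00147). ADAM12 (-1.46 ± 0.18), ADAMTS12 (-1.42 ± 0.27) and the plasminogen activator PLAT (-1.44 ± 0.18) fell less. ITGA11, a receptor for fibrillar collagen, was 1 of 3 integrins lower of 16 tested, with 66.2, 104 and 59.8 CPM in DMSO and 11.2, 22.1 and 14.9 CPM with dTAGV-1 (-2.25 ± 0.28, adjusted p = 0.000295). The other 2 integrins, ITGA6 (-0.62 ± 0.14) and ITGB8 (-0.69 ± 0.17), lost their calls in 5 and in 6 of the 6 settings that left out a library, ITGA6 keeping it without dTAGV-1 replicate 1, at -0.64 to -0.51 and -0.77 to -0.55. HS3ST1, a sulfotransferase of heparan sulfate, was low in all libraries and fell from 24.8, 13.03 and 12.7 to 2.10, 1.97 and 0.821 CPM (-3.28 ± 0.34, adjusted p = 7.84e-05). Of 20 heparan sulfate genes 2 were lower and none higher.

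AKAP12 (chr6:151239999-151358557), a scaffold that anchors protein kinase A and binds the cell cortex, led a group of cytoskeletal genes of which 5 of 24 were lower and none higher (median -0.27). Its converted reads stood at 2174, 3532 and 4454 CPM in DMSO and 267, 366 and 473 CPM with dTAGV-1 (-3.20 ± 0.33, adjusted p = 7.84e-05). MICAL2, which oxidises actin, had 722, 743 and 629 CPM in DMSO and 183, 219 and 175 CPM with dTAGV-1 (-1.86 ± 0.14, adjusted p = 1.34e-05). In both genes the arms stood well apart. MYLK, a kinase of myosin light chain, and the tropomyosin TPM1 were at -1.65 ± 0.21 and -1.27 ± 0.15. The potassium channel KCNMA1 had 2109, 1946 and 1799 CPM in DMSO and 384, 441 and 418 CPM with dTAGV-1 (-2.24 ± 0.18, adjusted p = 2.15e-05). NCKAP5 (-2.30 ± 0.24), the pseudokinase gene SGK223 (-2.35 ± 0.26) and the readthrough gene PALM2-AKAP2 (-2.14 ± 0.29) were others of the 15 largest falls. All 15 kept their calls with each of the 6 libraries left out.

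Some receptors and inhibitors of signalling were lower, most members of each list not passing. Of 25 G protein-coupled receptors and RGS genes 6 were lower and none higher (median -0.38), and 10 were lower with the block. RGS4, which switches off G proteins, had 625.2, 631 and 668 CPM in DMSO and 180.1, 216 and 226 CPM with dTAGV-1 (-1.63 ± 0.15, adjusted p = 3.23e-05). The oxytocin receptor OXTR (-1.23 ± 0.17), the endothelin receptor EDNRA (-1.63 ± 0.32) and the prostaglandin receptor PTGER2 (-1.53 ± 0.31) also fell. EDNRA and PTGER2 lost their calls without DMSO replicate 1 or dTAGV-1 replicate 2, at -1.61 to -1.40 and -1.50 to -1.23, and the list then had 3 and 2 lower members. SOCS5, a suppressor of cytokine and growth factor signalling, had 377, 331 and 303 CPM in DMSO and 117, 116 and 86.6 CPM with dTAGV-1 (-1.66 ± 0.15, adjusted p = 3.23e-05). NUAK2, a kinase induced by YAP, had 16.7, 15.4 and 10.6 CPM in DMSO and 3.83, 2.82 and 2.33 CPM with dTAGV-1 (-2.22 ± 0.35, adjusted p = 0.00227), and 2 of 24 YAP and TEAD targets were lower in all (5 with the block). ELL2, an elongation factor, was the sole member of 75 genes for RNA polymerase II, its general factors and Mediator to pass, from 418, 408 and 354 to 172, 126 and 94.5 CPM (-1.59 ± 0.19, adjusted p = 0.000257). ABCA1, the cholesterol exporter, fell (-1.95 ± 0.31, adjusted p = 0.00227) and MYLIP, which degrades the LDL receptor, rose, and both are known targets of the sterol-sensing LXR receptors.

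Hypoxia genes were called in both directions, with 4 of 27 lower and 3 higher (5 and 5 with the block). STC1, a secreted glycoprotein, had 258, 299.5 and 295 CPM in DMSO and 67.1, 43.2 and 53.5 CPM with dTAGV-1 (-2.38 ± 0.24, adjusted p = 6.21e-05). VEGFA, VEGFC and the oxygen-regulated factor HIF1A itself (-1.18 ± 0.21, adjusted p = 0.00671) were the other 3 that fell. The peptide hormone gene ADM rose from 62.1, 42.2 and 67.6 to 139, 82.7 and 196 CPM (1.28 ± 0.30, adjusted p = 0.0366), and the glucose transporter SLC2A1 (0.98 ± 0.20) and NDRG1 (0.99 ± 0.17) rose as well. ADM kept its call without dTAGV-1 replicate 2 and lost it without any of the other 5 libraries, at 0.95 to 1.41. Among D cyclins, their kinases and G1 inhibitors 3 of 14 were lower and 1 higher (3 and 3 with the block). CCND1, the D cyclin of G1, had 620.5, 523 and 768 CPM in DMSO and 236, 176 and 290.0 CPM with dTAGV-1 (-1.45 ± 0.26, adjusted p = 0.00604). CDK6, a partner kinase of the D cyclins, was at -1.06 ± 0.21, and CDKN2B, which inhibits that kinase, at -1.57 ± 0.21. CDKN1B, the inhibitor p27, rose from 115, 82.7 and 111 to 198, 153 and 256 CPM (0.98 ± 0.20, adjusted p = 0.0149), while CDKN1A, the inhibitor p21, was at 0.98 ± 0.25 (adjusted p = 0.0612, and 0.0452 with the block). Without DMSO replicate 2 neither CDK6 (-0.88) nor CDKN1B (0.84) was called.

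The rises were smaller than the falls. MYLIP had 9.31, 7.34 and 10.6 CPM in DMSO and 28.0, 19.6 and 21.1 CPM with dTAGV-1 (1.34 ± 0.24, adjusted p = 0.00576). UPP1, which breaks down uridine, had 63.8, 131 and 121 CPM in DMSO and 154, 273 and 279.8 CPM with dTAGV-1 (1.16 ± 0.27, adjusted p = 0.0345). The small heat shock protein gene HSPB8 (1.11 ± 0.21) and the epithelial scaffold gene SLC9A3R1 (1.22 ± 0.27) rose too. The 12 largest rises are those with a mean log2 CPM of at least 3 and arms apart, with clone-named genes passed over. Called rises outside this choice reached 2.78, and the noncoding share of the 12 depends on it. Noncoding genes among the 12 were LINC01629 (1.31 ± 0.30), LINC00886 (1.10 ± 0.22), the let-7b host gene MIRLET7BHG (1.08 ± 0.20) and SBF2-AS1 (1.11 ± 0.20). SBF2-AS1 overlaps SBF2 on the other strand. Among genes that RefSeq matches by symbol as lncRNA, 11 of 670 were lower and 10 higher, against 302 lower and 44 higher of 11410 protein-coding genes. MYLIP, TFAP2A and SBF2-AS1 kept their calls with each library left out, and the other 9 of the 12 rises lost theirs without at least 1 of the libraries; over the leave-one-out settings that ended a call, UPP1 and LINC01629 (both without DMSO replicate 1 or 3 or dTAGV-1 replicate 2 or 3) were at 0.90 to 1.27 and 1.08 to 1.37. SLC9A3R1 (without DMSO replicate 2 or 3 or dTAGV-1 replicate 3) was at 0.95 to 1.16, LINC00886 (without DMSO replicate 1 or 2 or dTAGV-1 replicate 2) at 0.92 to 1.11, MIRLET7BHG (without DMSO replicate 2 or 3) at 0.97 to 1.02 and HSPB8 (without DMSO replicate 2) at 1.04.

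Lists of cohesin and condensin genes, of G1 and S phase genes and of mitotic genes held no call in edgeR's test without the block. None of 7 ring and STAG subunits (median 0.06), 16 loading, release and boundary factors (0.07) or 8 condensin subunits (0.05) passed, nor did any with the block or in DESeq2. At an unadjusted p under 0.05, which 13.3% of all genes reached, there were 1, 1 and 0 of them, STAG1 (0.49 ± 0.15, adjusted p = 0.124) and CTCF (0.28 ± 0.12, adjusted p = 0.336). None of 29 G1 and S phase genes (median -0.03, 0.02 with all-read library sizes; 1 unadjusted, 0 in DESeq2, 1 with the block) and none of 36 mitotic genes (median 0.10; 0 unadjusted, 0 in DESeq2) passed. Of 50 replication-dependent histone genes, whose RNA is made for the packaging of new DNA, none passed (7 unadjusted, all higher; 0 in DESeq2) and 1 lay below 0, at a median of 0.36. None of 26 p53 targets passed (median 0.26; 8 unadjusted, all higher; 2 in DESeq2 and 2 with the block). None of 80 ribosomal protein genes (median -0.04, 0.02 with all-read library sizes; 0 unadjusted, 0 in DESeq2), of 22 housekeeping genes (median 0.03; 1 unadjusted, 1 in DESeq2 and 1 with the block) or of 15 genes of the mitochondrial genome (median 0.10; 0 unadjusted, 0 in DESeq2) passed.

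**Figure D2:**
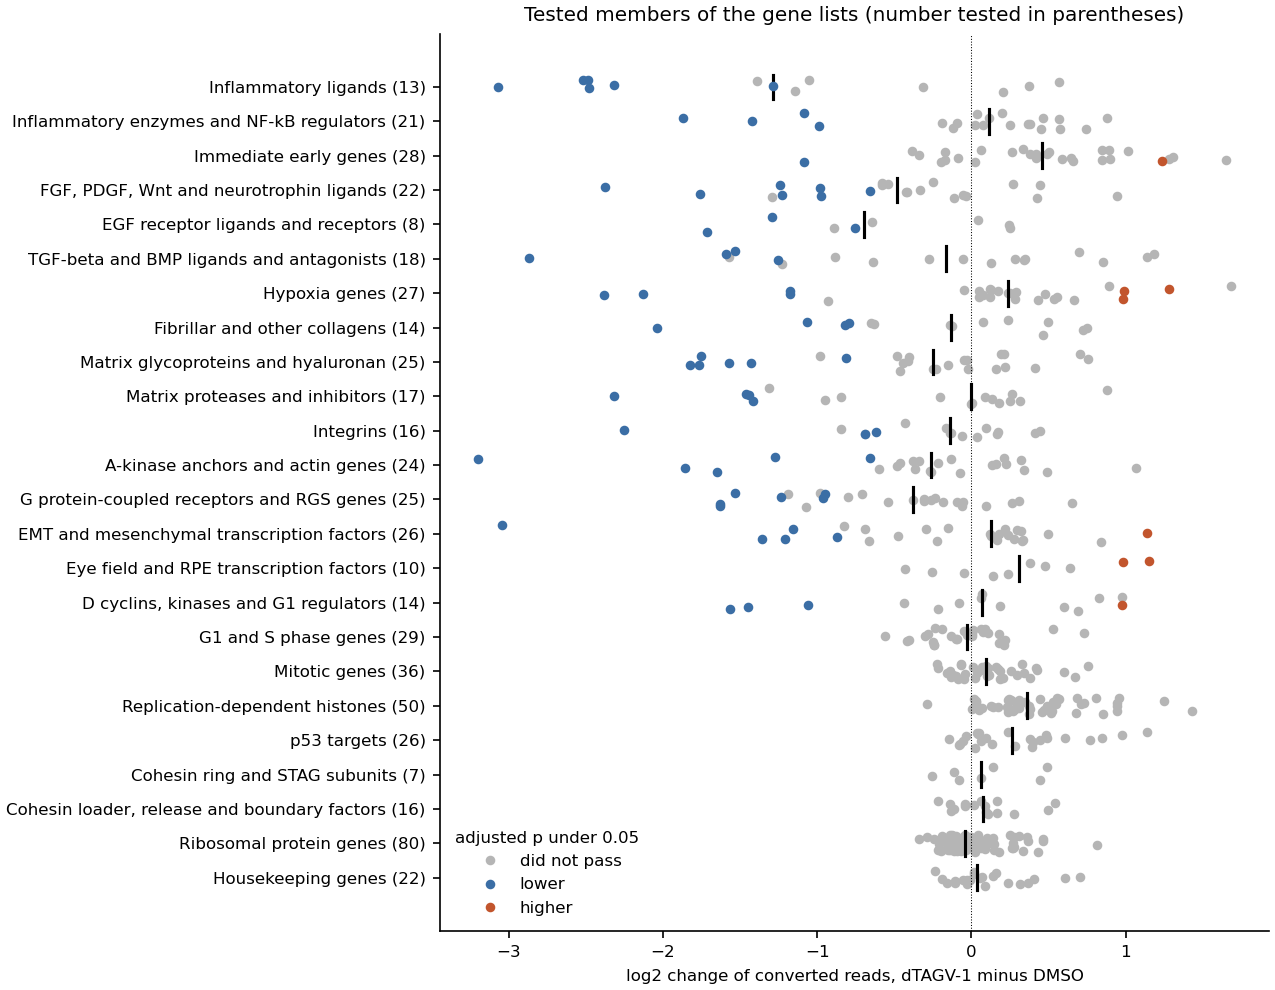
Log2 change of converted reads (dTAGV-1 minus DMSO) of each tested member of 24 gene lists; blue points are lower and orange points higher at adjusted p under 0.05, grey points did not pass, and the black bar is the list's median. The inflammatory ligands have the lowest median (-1.29), and the called members of the matrix, growth factor and mesenchymal lists lie to the left except for TFAP2A (1.14), while cohesin, histone and ribosomal protein genes hold no called member.

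Because all reads of the same libraries also hold RNA made before release, the 2 readouts were set side by side without relating them, as they share libraries. In all reads 63 of 22210 genes were lower (0.284%) and 3 higher (0.0135%), 0.297% in all. Most reads of some genes were converted in DMSO. IL1A had 81.7% of its reads converted in DMSO and 74.4% with dTAGV-1, and its log2 change in all reads was -2.42 ± 0.20; SNAI2 had 79.1% and 75.1% and stood at -3.02 ± 0.24 in all reads, and PTGS2 81.9% and 81.3% and -1.95 ± 0.21. Most reads of other genes, several of the matrix, were not converted. THBS1 had 10.2% of its reads converted in DMSO and 3.58% with dTAGV-1, and its change in all reads was -0.33 ± 0.18 (adjusted p = 0.68). COL5A2 had 19.4% and 5.44%, with -0.23 ± 0.15 in all reads (adjusted p = 0.713), and CCND1 17.6% and 7.51%, with -0.30 ± 0.17 (adjusted p = 0.683). AKAP12 had 45.8% ± 6.08 (SD, n = 3) of its reads converted in DMSO and 11.2% ± 2.63 with dTAGV-1, and a change of -1.24 ± 0.22 in all reads (adjusted p = 0.0169). Tested as converted reads relative to all reads of the same gene, 44 genes were lower (0.266%) and 1 higher (0.00603%), 0.272% of the genes tested, among them AKAP12 (-2.04 ± 0.23), STC1 (-1.89 ± 0.12), THBS1 (-1.52 ± 0.12), COL5A2 (-1.82 ± 0.24) and CCND1 (-1.23 ± 0.13), while IL1A was at -0.15 ± 0.12, SNAI2 at -0.13 ± 0.14 and PTGS2 at -0.01 ± 0.11. The count in all reads was 145, 39 and 42 without DMSO replicate 1, DMSO replicate 2 or dTAGV-1 replicate 2.

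When the drug was given from release rather than from mitosis, with the same 120 min label and libraries of their own, 107 genes were lower (0.646%) and 12 higher (0.0724%), 0.718% of 16571. Of the 339 genes that fell with the drug from mitosis, 79 were also lower there (23.3%, against 0.646% of all genes), none was higher, 333 lay below 0 and the median was -0.62. Of the 68 higher genes 8 were also higher and the median was 0.46. All 15 largest falls lay below 0 with the drug from release, and 9 were called. ITGA11 fell there by a log2 change of -2.21 ± 0.27, and OTX2 rose (1.16 ± 0.23, adjusted p = 0.026). KCNMA1 was at -0.40 ± 0.18 (adjusted p = 0.824), AKAP12 at -1.01 ± 0.31 (adjusted p = 0.279) and TFAP2A at 0.12 ± 0.17, none of which passed. The difference between the 2 drug timings, tested as an interaction, gave no gene in edgeR's test (495 at an unadjusted p under 0.05, 2.99%; 21 in DESeq2). With the replicate block 14 genes differed (0.0845%), 13 (0.0785%) with the more negative change from mitosis: AKAP12 (difference -2.13, adjusted p = 0.00992), KCNMA1 (-1.84, adjusted p = 0.00992), NCKAP5 (-1.78), STC1 (-1.59), TARBP1 (-1.55), P3H2 (-1.42), APBB2 (-1.38), IL1A (-1.35), VCAN (-1.32), FRMD6 (-1.20), IKZF2 (-1.16), NRG1 (-1.05) and COL5A2 (-1.01). TRPC4, a cation channel, was the exception (1.72; 0.00603% of the genes tested), at 0.41 ± 0.30 (adjusted p = 0.611) with the drug from mitosis and -1.42 ± 0.30 (adjusted p = 0.0385) from release. By the same check, same-numbered release libraries of the 2 arms correlated at 0.212, 0.307 and 0.0439. Differently numbered ones stood at -0.252 to 0.00766. The share of the lower genes also lower from release was 36.1% when DMSO replicate 1 was left out of the mitosis libraries, 39.3% of those called with all-read library sizes, 42.2% with the mitosis libraries alone and 14.3% of the 651 called with the block.

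A 15 min label at the same time after release, in other libraries of the mitosis series, is meant to read RNA of the last minutes. Converted reads were 3.05% to 4.23% of reads in these libraries. With the same label in DMSO at 0 min they were already 2.44% to 3.32%, and the part that came from older RNA was not tested. The short-label libraries at 120 min were fitted together with the long-label libraries of the mitosis series, so the 2 labels share an estimate of spread. The short label called 50 genes lower (0.373%) and 15 higher (0.112%) of 13413, 0.485% in all. Of the 326 lower genes tested there 46 were also lower (14.1%, against 0.375% of all genes tested in both), 307 lay below 0 and the median was -0.56; the share was 22% without DMSO replicate 1 of the long label, 25.1% with all-read library sizes, 26.2% with the mitosis libraries alone and 8.01% with the block. SNAI2 (-3.91 ± 0.44), BMP2 (-3.22 ± 0.35) and IL6 (-2.83 ± 0.36) passed with the short label too, and P3H2 (-1.04 ± 0.31) and PALM2-AKAP2 (-0.82 ± 0.39) did not pass. The interaction of drug and label length gave no gene in edgeR's test (643 at an unadjusted p under 0.05, 4.79%; 1 in DESeq2), and 2 with the replicate block (0.0149%), EFEMP1 and the adhesion gene NTM, both with the more negative change in the long label. EFEMP1 was at -0.02 ± 0.32 with the short label and -1.57 ± 0.32 with the long one.

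At 4, 6 and 8 h after release, with the drug from mitosis and a 15 min label, 1561 genes were lower (10.7%) and 1321 higher (9.07%) of 14570, 19.8% in all. Of the 326 genes tested there that had fallen by 120 min, 281 were lower (86.2%, against 10.9% of all genes) and none higher, and of 59 risen genes 46 were higher (78%, against 9.13%). All 15 largest falls were lower at these times, from -0.73 for STC1 to -3.35 for BMP2. Some list members had values near 0 at these times: ADM was at 0.18 and ZFP36 at 0.16, and neither passed. In DMSO alone, from 0 to 120 min after release with a 15 min label, 1864 genes fell (13.1%) and 2085 rose (14.7%) of 14206, 27.8% in all. Of 319 lower genes tested there 124 had risen (38.9%, against 15.3% of all genes) and 13 had fallen (4.08%, against 13%). IL1A rose by 5.23 on the log2 scale in DMSO, SNAI2 by 4.13, HAS2 by 3.73 and IL6 by 3.72, whereas KCNMA1 (0.24) and NCKAP5 (-0.44) did not pass. Of the 60 higher genes tested 23 had risen (38.3%, against 15.3% of all genes) and 5 had fallen (8.33%, against 13%). The risen share was thus alike in lower and higher genes. Scaling by all-read totals moved the median of all genes in this DMSO comparison by 0.36, and 18.1% rather than 47.2% of its calls were then falls.

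**Figure D3:**
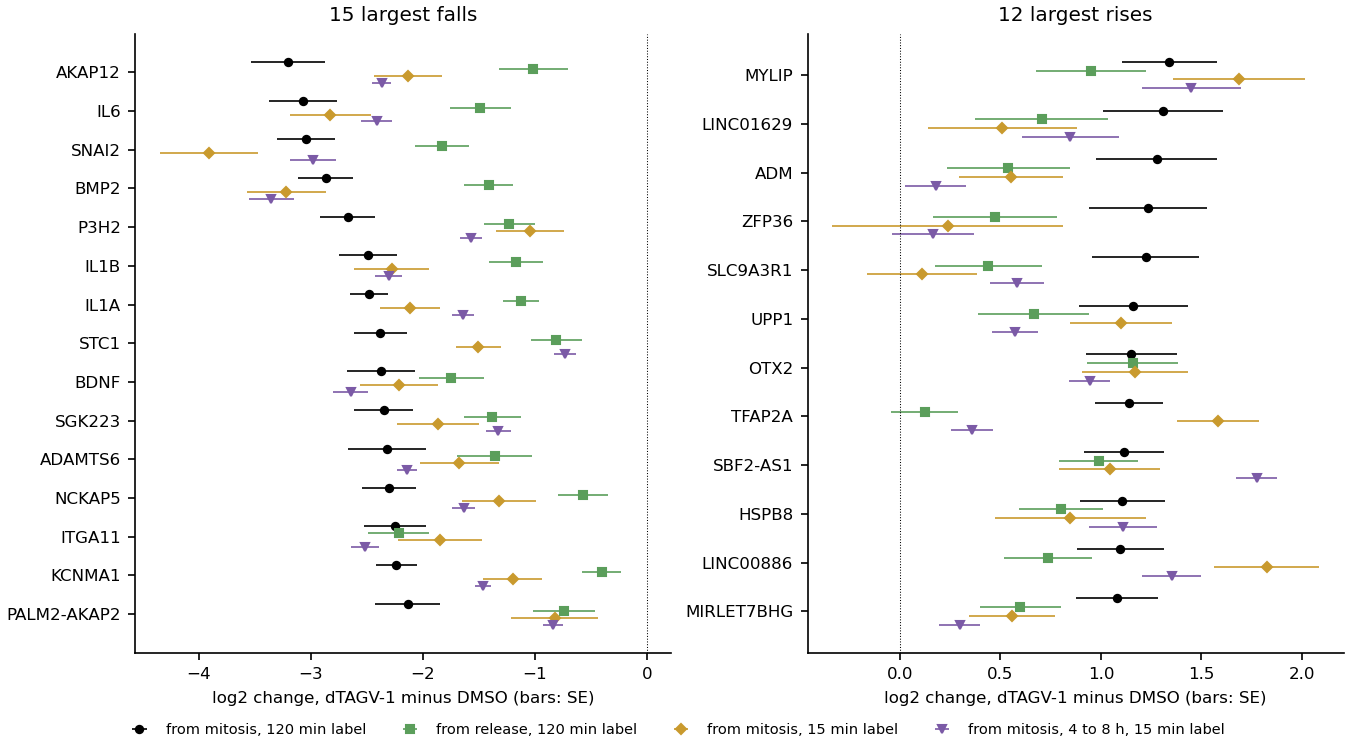
Log2 change (dTAGV-1 minus DMSO, bars are SE) of the 15 largest falls and 12 largest rises in 4 comparisons: drug from mitosis with 120 min of label (black), drug from release with 120 min of label (green), and drug from mitosis with 15 min of label at 120 min (gold) and at 4 to 8 h (purple). The 15 falls stay left of 0 and the 12 rises right of 0 in each of the 4, and AKAP12 and KCNMA1 are the furthest apart between the 2 drug timings.

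The genes that fell were long. Their median length was 82.8 kb, against 36.2 kb for the higher genes and 29.8 kb for all genes tested. The share called lower was 0.523% of genes under 5 kb, 1.14% from 5 to 20 kb, 1.66% from 20 to 50 kb, 2.49% from 50 to 100 kb, 3.84% from 100 to 200 kb and 5.97% from 200 to 500 kb. It was 3.25% (11 of 338) at 500 kb or more, where NCKAP5, KCNMA1 and NRG1 lie. The fallen genes were also read more deeply, with a median of 80.9 CPM in DMSO against 26.4 CPM for higher and 16.5 CPM for all genes. Among genes with a mean log2 CPM from 5 to 8, 1.26% (3 of 238) of those under 5 kb were lower, 3.66% from 100 to 200 kb, 6.63% (32 of 483) from 200 to 500 kb and 10.1% (9 of 89) at 500 kb or more. The median change of all genes in a length bin ranged from 0.11 (5 to 20 kb) to -0.08 (200 to 500 kb). With the drug from release it went from 0.13 under 5 kb to -0.12 at 500 kb or more. With the 15 min label at 120 min the medians ran the other way. They went from -0.29 under 5 kb to 0.31 from 200 to 500 kb and 0.64 at 500 kb or more. The cause was not tested. Short genes with large falls were IL6 (6.12 kb), SNAI2 (4.05 kb) and CXCL1 (1.85 kb).

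**Figure D4:**
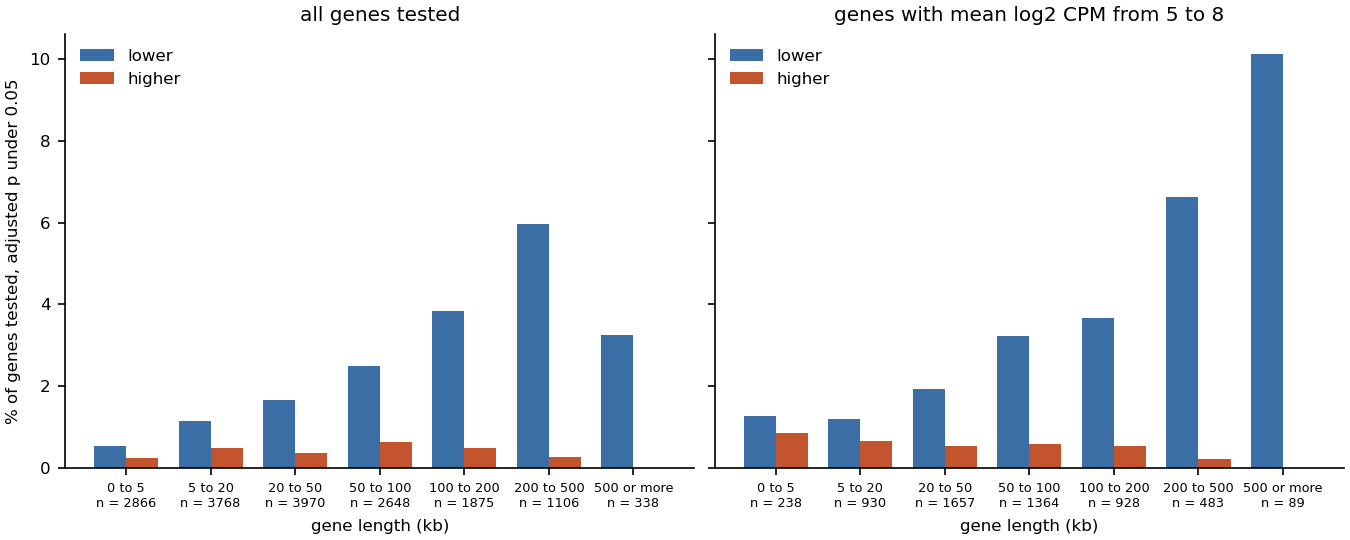
Percent of tested genes called lower (blue) or higher (orange) at adjusted p under 0.05 by gene length in kb, for all genes tested (left) and for genes with a mean log2 CPM from 5 to 8 (right); n under each bin is the number of genes. The lower share climbs from 0.523% to 5.97% up to 500 kb in all genes and reaches 10.1% in the longest bin at matched level, while the higher share does not exceed 0.840%.

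Fallen genes also lay in sparser surroundings. The nearest start of another tested gene was at a median distance of 74.4 kb, against 21.3 kb for higher and 21.7 kb for all genes, and a median of 6 tested genes had a start within 500 kb, against 9 for higher and 9 for all genes. Of the 339, 85 (25.1%) had another lower gene within 500 kb, compared with 11.8% of all genes tested. Of the 68 higher genes 16 (23.5%) had another higher gene within that distance, compared with 3.59% of all. These shares move with the number of genes called, so each is given beside that of all genes in the same setting. For lower genes the share was 12.3% against 7.45% without dTAGV-1 replicate 2, 13.4% against 7.51% without DMSO replicate 2, 15.7% against 7% without DMSO replicate 1 and 15.7% against 8.53% without DMSO replicate 3. It was 10.4% against 6.02% with all-read library sizes, 8.16% against 5.24% with the mitosis libraries alone and 36.3% against 20.6% with the block. Relative to all reads none of the 44 lower genes had such a neighbour, against 1.74% of all genes. For higher genes it was 7.41% against 1.44% without DMSO replicate 3, 8.70% against 0.99% without DMSO replicate 2 and 11.8% against 1.77% without dTAGV-1 replicate 2. It was 15.4% against 2.14% with all-read library sizes, and none of the 18 higher genes called with the mitosis libraries alone had such a neighbour, against 0.99% of all genes. There were 48 pairs of 2 lower genes, 8 pairs of 2 higher genes and 14 pairs of opposite direction. Some pairs of like direction overlap, among them COL4A1 with COL4A2 and FRMD6 with FRMD6-AS1. With the strand used in counting unknown, reads of such pairs cannot be separated, and the shares and pair counts include them.

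Neighbours of the largest falls differed from locus to locus. None of the 6 tested genes within 500 kb of AKAP12 passed, and 5 of them, MTHFD1L, ZBTB2, RMND1, ARMT1 and ESR1, lay between -0.08 and 0.05. Of 13 near IL6, FAM126A, which acts in lipid kinase complexes, was lower (-0.85 ± 0.16, adjusted p = 0.00857, 288 kb away) and the other 12 did not pass, although STEAP1B was higher with the block (adjusted p = 0.0369). IL1A, 52.3 kb from IL1B, and POLR1B (-0.65 ± 0.14, adjusted p = 0.0229) were the 2 of 16 near IL1B that fell, while SLC20A1, 191 kb away, was at 0.00 and PAX8-AS1 was higher with the block alone (adjusted p = 0.0327). Near P3H2, IL1RAP, the shared receptor chain of interleukin-1, was lower (-1.10 ± 0.22, adjusted p = 0.0131, 392 kb away), and CLDN1 was at -1.70 without passing (adjusted p = 0.108, and 0.0103 with the block). SNAI2 had 1 tested neighbour, which did not pass, and BMP2 none. Elsewhere the caveolin genes CAV1 (-1.53) and CAV2 (-1.46) fell together. So did SAMD3 (-2.13) and TMEM200A (-1.99), whose starts lie 0.309 kb apart. Opposite pairs included TIPARP (-1.38) and LINC00886 (1.10) 144 kb apart, ABCA13 (-1.54) and UPP1 (1.16) 82.8 kb apart, and ELL2 (-1.59) and LINC01554 (1.84) 110 kb apart.

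**Figure D5:**
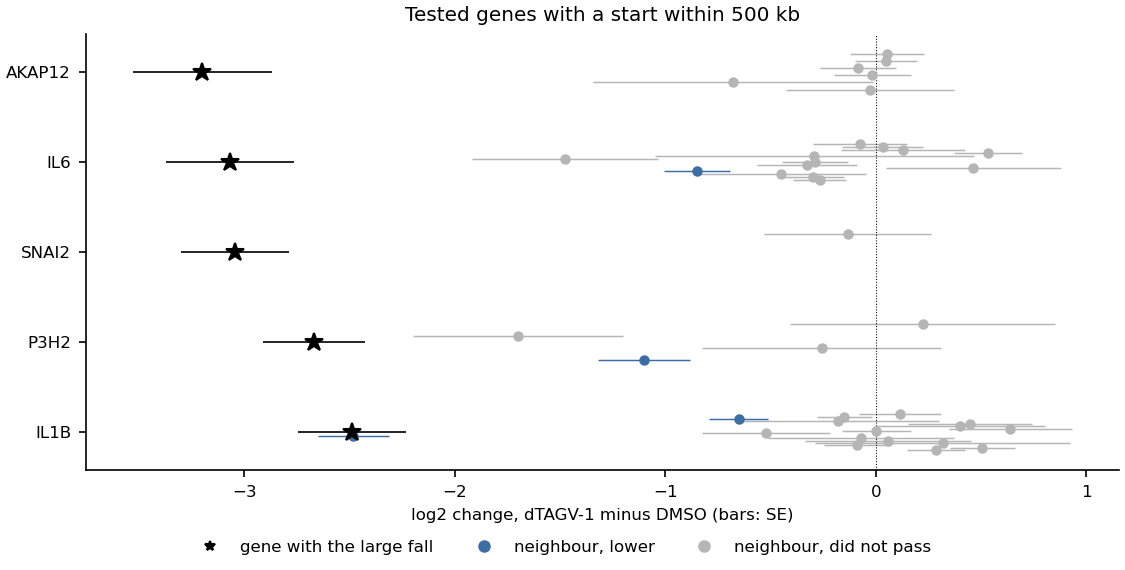
Log2 change (dTAGV-1 minus DMSO, bars are SE) of 5 genes with large falls (stars) and of the other tested genes with a start within 500 kb (blue lower, grey did not pass). Most neighbours lie near 0, with FAM126A, IL1RAP, POLR1B and IL1A as the called ones; BMP2, among the 6 largest falls, has no tested neighbour and is not drawn.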

How the data were processed

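SLAM-seq libraries of the NIPBL-D7 clone were used, 60 of the 92 in the series. The authors deposited, for each library and gene, counts of all reads and of reads with T-to-C conversions, and the conversion rate as a fraction, per the file headers. The submitters' processing notes name HISAT, Picard, HTSeq and hg38; versions, the rule for a converted read and the strand used in counting are not given in the sources used here. Genes on the Y chromosome or of X inactivation (185 of 48818) were left out. From the deposited counts, converted reads were tested with edgeR 4.0.16 in R 4.3.3 (quasi-likelihood, TMM, at least 10 counts in enough libraries and 15 in all, Benjamini-Hochberg threshold 0.05), in 1 fit with the 120 min label libraries of the release series, which share the estimate of spread. SE is the size of the log2 change divided by the square root of F. CPM are TMM-scaled converted reads per 1000000. No label says that replicates were separate cultures, so p-values measure only the spread between these libraries. Replicates differed by more than counting noise (chi-square per degree of freedom of 18.1 to 44.6), and none was a repeat of another.

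Same-numbered libraries of the 2 arms deviated together (correlations of 0.153, 0.659 and 0.404), so that the numbers pair the samples by the data, not by a label, and a fit with the number as a block is given where it matters. The members and the 47 gene lists were chosen with earlier results of these data known. Named genes were the 15 largest falls and 12 largest rises among called genes with a mean log2 CPM of at least 3 and arms apart, and up to 4 called members per list, of which 1 is not reported here; CSF1, CSF2, FGF2, TWIST2, HIF1A, SLC2A1, NDRG1 and genes named without a call or as neighbours were chosen after their values were seen. Alternatives were DESeq2 1.42.0 (size factors, test), library sizes from all reads, no low-count filter, the mitosis libraries alone, a log2 size of 1, converted reads relative to all reads (offset, prior 0.5), all reads, the block and leaving out each library. In data simulated for the comparison of drug from mitosis (16571 genes), 60% of 100 genes with a log2 change of 1 and 96% of 100 with a change of 2 were called, and 10 unchanged genes. Promoters are RefSeq's (GRCh38.p14). Python 3.11.15, pandas 2.3.3, numpy 2.4.6, scipy 1.17.1 and matplotlib 3.10.9 were used for the rest.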

Additional observations from a re-analysis of the deposited data

Results flagged for a closer look

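The 10 genes with the most converted reads took 13.5% of the converted reads in replicate 3 of DMSO at 120 min after release with a 15 min label, against 3.44% to 3.75% in the other libraries of its group. It stood apart by Dixon's criterion among 96 values examined, and chance flags about 1 in 20 groups. That library also stood apart for 2 of the named genes, NFKBIZ (269 CPM) and LRIG1 (28.6 CPM). It entered the 15 min label and the DMSO time comparisons and not the 120 min label. Without it the interaction of drug and label length still called 0 genes in edgeR's test, and 3855 rather than 3949 genes changed in DMSO from 0 to 120 min.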

How the results depend on the processing

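The drug comparison from mitosis called 407 genes. It called 234 at a log2 size of at least 1, 666 in DESeq2's test, 212 with all-read library sizes, 165 with the mitosis libraries alone, 790 with no low-count filter, 45 relative to all reads of the gene, 833 with the replicate block and 225 to 404 with a library left out. Without the filter 70.3% of calls were lower, against 83.3%. The difference between drug timings called 0 genes, and 21 in DESeq2's test, 36 with no filter, 14 with the replicate block and 0 with any library left out. The difference between label lengths called 0, and 1, 81 and 2 in the same settings. All reads called 66 genes, and 180 in DESeq2's test, 40 with all-read library sizes (which moved the median of all genes by 0.13), 180 with no filter, 107 with the replicate block and 39 to 145 with a library left out. At 4 to 8 h, 64.3% rather than 54.2% of calls were lower with all-read library sizes. The difference in converted share was -2.01 to 0.665 percentage points with a library left out.

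ZFP36 stood at -0.048 relative to all reads and COL4A2 at 0.16 in all reads, both reversed; the cause was not tested. Of 91 named genes, all 91 kept direction and side in DESeq2's test, with no filter and with the replicate block, 75 with all-read library sizes and 61 with the mitosis libraries alone. Only 19 did relative to all reads of the gene (71 no longer passed) and 35 in all reads (55 no longer passed). The block ended no call among the 93 called members of the gene lists and added 40 lower and 18 higher ones. Genes with a log2 change of 1 were recovered in 60% of simulated cases, so smaller changes may be missed at this depth.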

Other observations

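Guidance and adhesion genes, not described above, gave a few calls. Of 30 semaphorin, slit, netrin and ephrin genes 4 were lower and none higher (median -0.14, against 0.02 over all genes), namely EPHB2 (-1.01 ± 0.15, adjusted p = 0.00144), PLXNA2 (-0.77 ± 0.16, adjusted p = 0.0205), SLIT2 (-0.90 ± 0.21, adjusted p = 0.0325) and SEMA3D (-1.88 ± 0.47, adjusted p = 0.048). EPHB2, an ephrin receptor, kept its call with each library left out. PLXNA2 lost it without DMSO replicate 2 or dTAGV-1 replicate 1 or 3 (-0.70 to -0.58), SLIT2 without any library but DMSO replicate 2 (-0.92 to -0.75) and SEMA3D without any but DMSO replicate 3 (-2.29 to -1.44). Of 13 cadherins and protocadherins, CDH2 was lower (-0.93 ± 0.17, adjusted p = 0.00673) and PCDH10 higher (0.65 ± 0.14, adjusted p = 0.0216), and 3 were lower with the replicate block. PCDH10 was not called without DMSO replicate 1 or 2 or dTAGV-1 replicate 1 or 3, at 0.58 to 0.61.

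Genes of the aryl hydrocarbon receptor also split. TIPARP, a target that represses the receptor, fell (-1.38 ± 0.19, adjusted p = 0.000931), and CYP1B1, a target that oxidises its ligands, rose (1.21 ± 0.30, adjusted p = 0.0453) although its arms overlapped. CYP1B1 kept its call without DMSO replicate 3 or dTAGV-1 replicate 1, and stood at 0.87 to 1.27 in the other 4 leave-one-out settings. An antisense gene overlaps each of them, and with the strand used in counting unknown their reads cannot be told apart.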
